A study of Homo sapiens with 6 samples.

Results

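The genes described here encode heterogeneous nuclear ribonucleoproteins (hnRNPs), core spliceosome proteins and regulators of alternative splicing. They were taken by symbol from a list of 55, of the 20683 gene symbols in the deposited count tables, and all 55 were in the tables and passed the low-count filter. The list holds 16 hnRNP genes, 24 genes of small nuclear ribonucleoproteins (snRNPs), SF3 and other core factors, 12 splicing regulators, and 3 genes of nuclear speckle proteins rich in arginine and serine (SON, SRRM1 and SRRM2). The cells were HT-1080, a human fibrosarcoma line. The inhibitor group had been exposed for 4 h to SLV-8472-01, which the series describes as an IRAK4 inhibitor, at a labelled 5 mM. That may be a stock concentration, since no dilution is labelled. The control group had 0.1% DMSO for the same 4 h. Each group had 3 libraries, described by the submitters as biological replicates.

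A spliceosome removes introns from pre-mRNA through the stepwise action of the U1, U2, U4, U5 and U6 snRNPs, each built on a ring of Sm proteins or on its relatives. The hnRNPs coat nascent transcripts and often favour exon skipping, while other RNA-binding proteins enhance or repress exons depending on where they bind. Many of these genes control their own mRNA through alternative exons that lead to its decay. Expression was read with an amplicon panel, in which PCR copies a stretch of every targeted transcript. A value therefore reports the amplified part, and a change of the whole mRNA and a change of an isoform holding that part cannot be told apart. Levels of different genes depend on their amplicons and were not compared with each other, and exon usage was not measured.

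The inhibitor libraries held from 7644478 to 11427779 counts and the DMSO libraries from 12003104 to 15336351. The genes of the list took 1.61% to 1.65% of all counts in the inhibitor libraries and 1.70% to 1.81% in the DMSO libraries. CPM are counts per 1000000 after scaling by the trimmed mean of M values (TMM). So scaled, the list summed to 16490 to 17000 CPM with the inhibitor and 16626 to 18071 CPM with DMSO, and the groups overlapped. The mesenchymal marker VIM averaged 6019 CPM with the inhibitor and 5648 CPM with DMSO. All 6 mesenchymal markers looked up were tested, of which CD44 and MMP14 rose (log2 fold changes 0.53 and 0.31, edgeR adjusted p = 0.00835 and 0.0365) and 4, VIM among them, were not called; the part of these in the splicing genes' values was not tested. CDH1, which encodes the epithelial E-cadherin, and the leukocyte genes PTPRC and CD3E had 0 counts in every library. Among other markers, the epithelial CLDN4 had 5 to 13 counts in the inhibitor libraries and 10 to 29 in the DMSO libraries, and the endothelial PECAM1 had 5 to 8 with the inhibitor and 6 to 10 with DMSO. EPCAM, KRT5 and CD14 had 0 to 2 counts in each library. All 3 inhibitor libraries were shallower than all 3 DMSO libraries. With every library thinned to the smallest total, 4 genes of the list rose and 7 fell. In these thinned libraries 9.04% of all tested genes rose and 9.09% fell. Libraries came from bulk RNA, in which fewer cells expressing a gene and less of its RNA per cell cannot be told apart. Of the 3 inhibitor libraries, replicate 3 had the fewest counts and stood apart in a few genes of the list, which are named with their values.

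Changes among these splicing genes were small, and more of them fell than rose. Of the 55 genes, 5 rose and 10 fell in the inhibitor group (edgeR quasi-likelihood test, Benjamini-Hochberg adjusted p under 0.05), which is 27.3% of the list, against 20.2% of the 11391 genes tested. Rises made up 9.09% of the list and 9.92% of all tested genes. Falls made up 18.2% of the list and 10.3% of all tested genes. The median log2 fold change, inhibitor minus DMSO, was -0.09 in the list and 0.003 over all tested genes. The absolute log2 fold change had a median of 0.19 in the list and 0.21 over all tested genes. None of the 55 reached an absolute log2 fold change of 1, which 2.59% of all tested genes did. An absolute log2 fold change of 0.5 was reached by 2 (3.64%, against 15.8% of all tested genes). These shares were not matched for level, since tested genes went down to a mean of 0.62 CPM and the list to 4.19 CPM. Groups did not overlap for 26 genes of the list, with the inhibitor libraries below in 16 and above in 10. Over all tested genes the groups were apart for 36.3%, with the inhibitor libraries below for 18.7% and above for 17.7%.

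**Figure D1:**
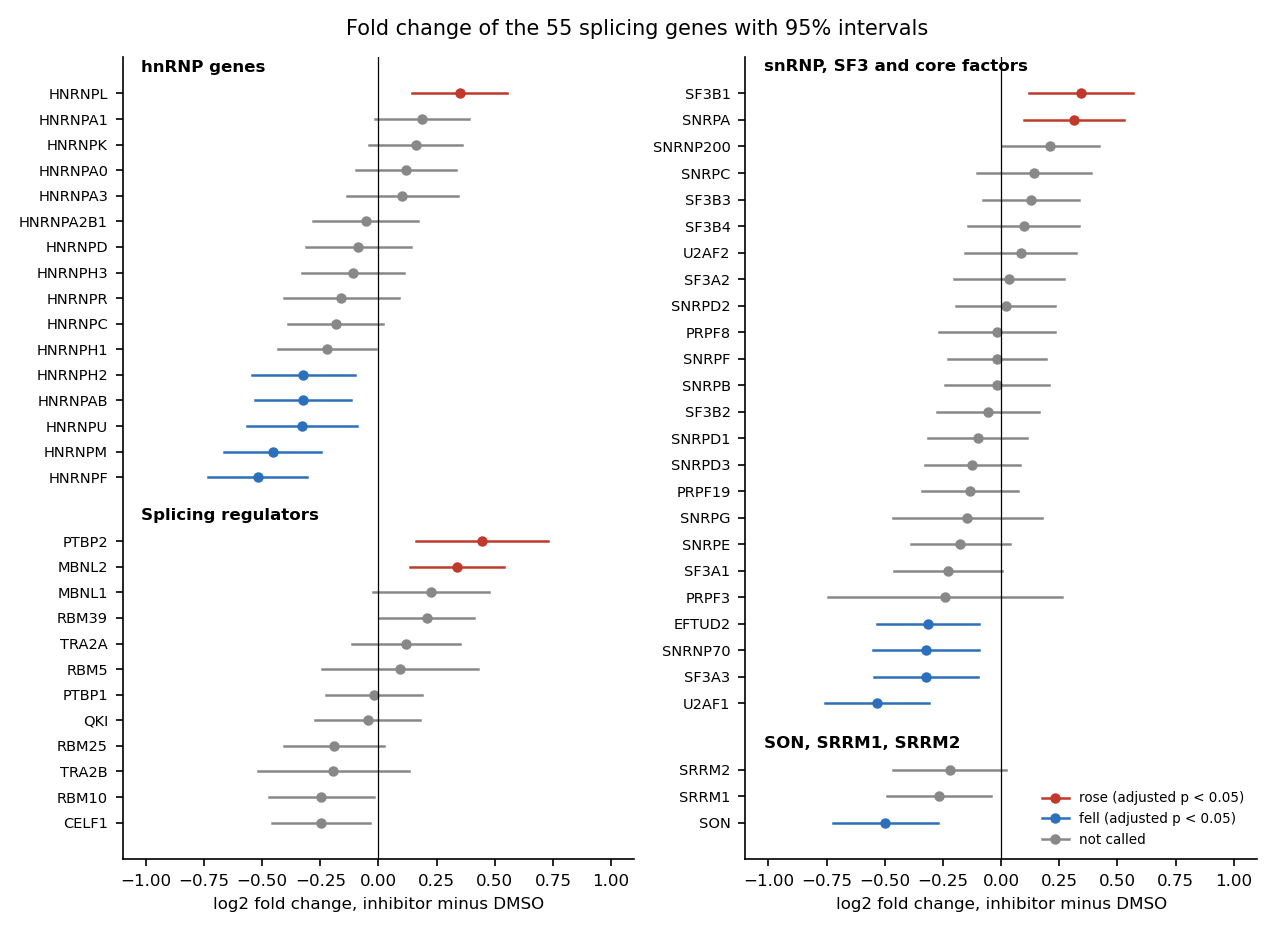
Points show the log2 fold change (inhibitor minus DMSO, x axis) of each of the 55 genes with its 95% interval as a line, grouped by role, with genes that rose in red, genes that fell in blue and genes not called in grey. The 4 largest falls, U2AF1, HNRNPF, SON and HNRNPM, lie between -0.53 and -0.46, and the largest rise, PTBP2, lies at 0.44.

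The numbers of calls depended on single libraries and on the scaling. Leaving out inhibitor replicate 2 left 2 rises, while 7.6% of all tested genes rose. Leaving out DMSO replicate 1, 2 or 3 left 3, 1 or 2 rises, while 7.97%, 5.95% and 7.11% of all tested genes rose. Falls numbered 6 without inhibitor replicate 3, while 9.66% of all tested genes fell. Without DMSO replicates 1, 2 and 3 they numbered 5, 6 and 6, while 8.48%, 6.27% and 7.39% of all tested genes fell. With library totals alone as the scaling, 1 gene of the list rose and 14 fell, while 7.3% of all tested genes rose and 15% fell. That scaling moved the median of all genes to -0.07. With upper-quartile scaling, 5 rose and 5 fell (9.09% of the list each), while 11% of all tested genes rose and 8.97% fell. The median of all genes was then 0.03. With a minimum mean of 10 CPM, 5 genes of the list rose and 9 fell. Under that filter 11% of all tested genes rose and 11.5% fell. The 5 falls lost with upper-quartile scaling were HNRNPH2, HNRNPU, SF3A3, SNRNP70 and EFTUD2 (edgeR adjusted p from 0.0511 to 0.0578). HNRNPF and U2AF1 were called under each of the 17 alternatives run. HNRNPM and SON missed only the test against a fold of 1.2, which the other 11 called genes missed as well.

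**Figure D2:**
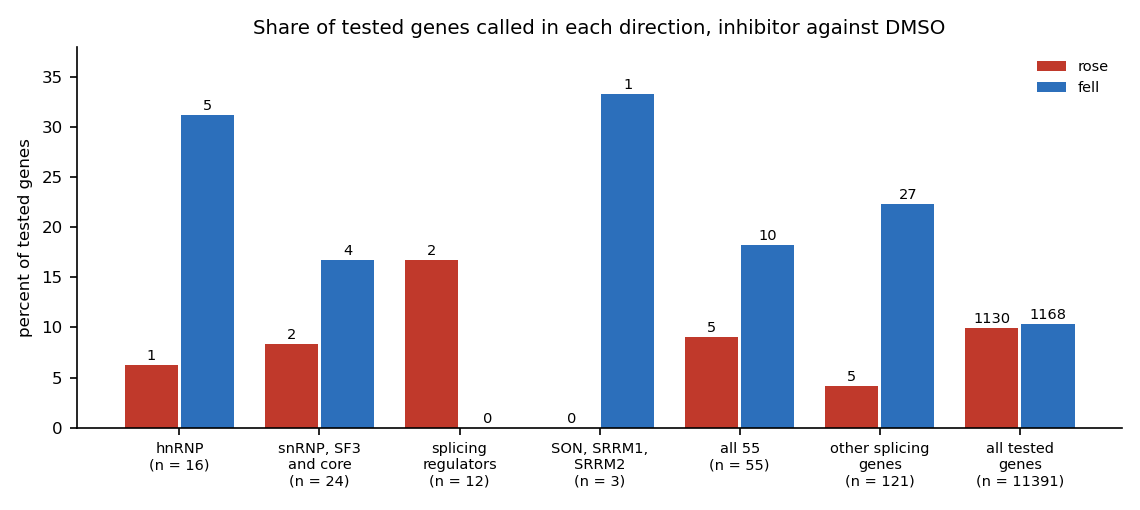
Bars show the percent of tested genes (y axis) that rose, in red, and that fell, in blue, with the number of genes above each bar. Falls outnumber rises among hnRNP genes (5 and 1), in the whole list (10 and 5) and among 121 further tested genes (27 and 5). These 121, labelled other splicing genes, include 10 nonsense-mediated decay factors. All tested genes hold 1130 rises and 1168 falls.

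The promoters of these genes were read from RefSeq (GRCh38.p14, 250 bases before to 50 after the start), which held 48 of the 55. The first promoter listed for each gene was used. For 42 of the 48, bases after the start were found in a transcript of that gene in GENCODE release 29, so the start is less certain in the rest. They are described by letters alone, on both strands, and a match is not evidence that a factor binds. The CCAAT box (CCAAT) was in 11 of 15 hnRNP promoters (73.3%) and 5 of 21 snRNP, SF3 and core promoters (23.8%), against 37.3% of the 8918 promoters of tested genes found. The ETS motif (CCGGAAG) had the opposite pattern, in 2 of 15 hnRNP promoters (13.3%) and 12 of 21 snRNP, SF3 and core promoters (57.1%), against 20.6% of promoters of tested genes. The E-box (CACGTG) was in 5 hnRNP promoters and 2 core promoters (10.5% of promoters of tested genes), the NRF1 motif (GCGCATGC) in 0 and 2 (5.79%), the TATA motif (TATAAA) in 3 and 1 (5.24%), and TGACG, the core of the cyclic AMP response element, in 7 and 7 (35.4%). The full element TGACGTCA, which contains that core, was in 0 of the 48 and in 3.43% of promoters of tested genes. Among genes that fell, 5 of 10 held a CCAAT box and 2 an ETS motif, and among the 5 genes that rose 2 held a CCAAT box and 0 an ETS motif. Of the 33 promoters of genes not called, 15 held a CCAAT box and 12 an ETS motif. TGACG was in 5 of 10 genes that fell, 0 of 5 that rose and 14 of 33 not called.

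The 100 bases before the start are shown for the 6 called genes with the smallest p, 5′ to 3′ on the gene's strand, with motifs of the searched set in capitals, so that the promoters of genes that fell and rose can be read side by side. The first 4 genes fell and the last 2 rose. The positions are chr10:43408858-43408957 (minus strand) for HNRNPF, chr21:43107571-43107670 (minus) for U2AF1, chr21:33542938-33543037 (plus) for SON, chr19:8444875-8444974 (plus) for HNRNPM, chr19:38852348-38852447 (minus) for HNRNPL and chr13:97141734-97141833 (plus) for MBNL2.
HNRNPF: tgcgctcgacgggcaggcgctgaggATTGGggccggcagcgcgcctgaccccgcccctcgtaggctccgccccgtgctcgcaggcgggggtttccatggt
U2AF1: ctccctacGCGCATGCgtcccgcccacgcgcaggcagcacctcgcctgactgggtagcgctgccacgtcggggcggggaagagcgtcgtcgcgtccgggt
SON: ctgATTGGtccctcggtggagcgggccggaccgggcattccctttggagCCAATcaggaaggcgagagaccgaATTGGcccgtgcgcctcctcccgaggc
HNRNPM: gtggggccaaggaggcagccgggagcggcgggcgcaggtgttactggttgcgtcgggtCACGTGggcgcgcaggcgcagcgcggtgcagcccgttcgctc
HNRNPL: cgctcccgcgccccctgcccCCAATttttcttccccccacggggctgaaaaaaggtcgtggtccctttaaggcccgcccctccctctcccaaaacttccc
MBNL2: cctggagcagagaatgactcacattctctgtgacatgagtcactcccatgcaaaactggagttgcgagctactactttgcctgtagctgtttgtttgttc

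SON held 3 CCAAT boxes in this window, of which 2 read ATTGG on the gene's strand, HNRNPF and HNRNPL 1 each, U2AF1 an NRF1 motif, HNRNPM an E-box and MBNL2 none of the searched motifs.

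Of the 16 hnRNP genes, 5 fell (31.2%, against 10.3% of all tested genes), 1 rose (6.25%, against 9.92%) and 10 were not called. Their median log2 fold change was -0.14. HNRNPF, which encodes a protein that binds G-rich RNA, had 82.95, 76.15 and 73.56 CPM in the inhibitor libraries, against 111.2, 114.2 and 108.4 CPM in the DMSO libraries. Every inhibitor library was below every DMSO library, and HNRNPF fell by 0.52 ± 0.10 (SE) on the log2 scale, a change of -30.2% (edgeR adjusted p = 9.94e-04; over the alternatives up to 0.0357). HNRNPM, which encodes a regulator that binds GU-rich RNA, had 94.33, 94.64 and 92.46 CPM in the inhibitor libraries, against 120.7, 132.1 and 133.2 CPM in the DMSO libraries. The groups were again apart, by more than the spread within either, and HNRNPM fell by 0.46 ± 0.10 on the log2 scale (edgeR adjusted p = 0.00269; 0.0926 in the test against a fold of 1.2).

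HNRNPL was the hnRNP gene that rose. Its protein binds CA repeats in pre-mRNA. The inhibitor libraries had 1191, 1172 and 1148 CPM, against 965.7, 845.5 and 946 CPM in the DMSO libraries, and did not overlap with them. The log2 fold change was 0.35 ± 0.10 (edgeR adjusted p = 0.0142), a call that was lost without DMSO replicate 2 (edgeR adjusted p = 0.102).

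The other 3 hnRNP genes that fell had log2 fold changes close to -0.33, and their groups did not overlap. HNRNPAB, which encodes a protein related to the product of HNRNPD, had 551.4, 633.8 and 593.6 CPM with the inhibitor, against 754.2, 701.5 and 773.1 CPM with DMSO. Its log2 fold change was -0.33 ± 0.10 (edgeR adjusted p = 0.023), and the call was lost without inhibitor replicate 1, DMSO replicate 1 or DMSO replicate 3 (adjusted p from 0.0653 to 0.0792). HNRNPU, which encodes a nuclear scaffold protein that binds both RNA and chromatin, had 805, 815.4 and 653.5 CPM with the inhibitor, against 916.4, 845.1 and 1098 CPM with DMSO. Inhibitor replicate 3 was the lowest of the 6 libraries and DMSO replicate 3 the highest. HNRNPU had a log2 fold change of -0.33 ± 0.11 (edgeR adjusted p = 0.0437) and was not called without inhibitor replicate 2, inhibitor replicate 3, DMSO replicate 1 or DMSO replicate 3 (adjusted p from 0.0518 to 0.241). The HNRNPU call was also lost with the replicate number as a block (0.0622), in thinned libraries (0.0509), with a minimum mean of 10 CPM (0.0542) and with upper-quartile scaling (0.0553). HNRNPH2, a close relative of HNRNPH1 and HNRNPF, had 86.71, 78.43 and 69.27 CPM with the inhibitor, against 95.61, 97.69 and 100.7 CPM with DMSO. It had a log2 fold change of -0.32 ± 0.11 (edgeR adjusted p = 0.0359), and of the 6 libraries only inhibitor replicate 1 could be left out without losing the call (adjusted p from 0.0599 to 0.122 without each of the others). HNRNPH2 also shares exon bases with an annotated read-through gene, RPL36A-HNRNPH2, so its counts are uncertain to that extent.

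The remaining 10 hnRNP genes were not called. HNRNPH1, which like HNRNPF encodes a binder of G-rich RNA, averaged 192 ± 2.74 CPM with the inhibitor and 224 ± 20.9 CPM with DMSO (SD, n = 3 each). Its log2 fold change was -0.22 ± 0.10 (edgeR adjusted p = 0.133), and it was called with library totals as the scaling (0.0443). HNRNPA1, which encodes a classical exon-skipping factor, was at 297.6, 301.7 and 298.5 CPM with the inhibitor and 249.1, 265.2 and 274.4 CPM with DMSO. These groups did not overlap, yet the log2 fold change of 0.19 ± 0.10 was not called (edgeR adjusted p = 0.181). HNRNPA1 has 74 pseudogenes named after it in GENCODE release 29, so its count is uncertain to the extent that reads of such copies were assigned to it. HNRNPA2B1, a relative of HNRNPA1, averaged 2009 ± 142 CPM with the inhibitor and 2086 ± 279 CPM with DMSO. Its log2 fold change was -0.05 with a 95% interval from -0.28 to 0.17. HNRNPR, whose product resembles that of SYNCRIP, had 154.8 CPM in inhibitor replicate 3, against 219.2 and 223 CPM in the other inhibitor libraries and 218.8, 228.6 and 220.5 CPM in the DMSO libraries. The log2 fold changes of HNRNPC, HNRNPH3, HNRNPD, HNRNPA3, HNRNPA0 and HNRNPK lay from -0.18 to 0.16, with edgeR adjusted p from 0.201 to 0.616.

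**Figure D3:**
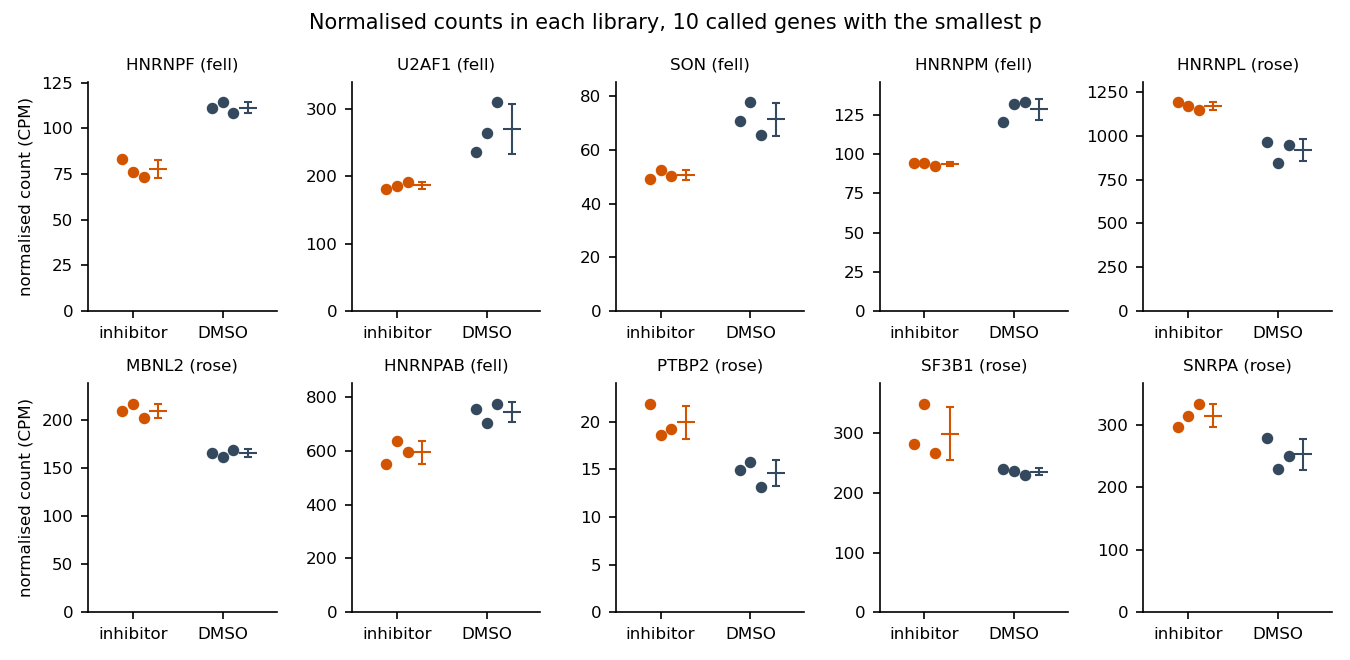
Each panel shows the normalised count (CPM, y axis from 0) of a called gene in the 3 inhibitor libraries and the 3 DMSO libraries as points, with the mean and SD beside them, for the 10 called genes with the smallest p. In all 10 panels the groups are apart, with log2 fold changes from -0.53 in U2AF1 to 0.44 in PTBP2. The genes were chosen by p, and of all 2298 called genes only 74 had overlapping groups.

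Of the 24 snRNP, SF3 and core factor genes, 2 rose (8.33%, against 9.92% of all tested genes) and 4 fell (16.7%, against 10.3%). The other 18 were not called, and the median log2 fold change of the 24 was -0.04. The largest fall of the whole list was in U2AF1, whose product is the small subunit of U2AF and recognises the AG at the end of introns. U2AF1 had 181.1, 186 and 192.3 CPM in the inhibitor libraries, against 235.7, 264.7 and 310 CPM in the DMSO libraries. The inhibitor libraries lay close together and below all DMSO libraries. The log2 fold change was -0.53 ± 0.11, a change of -31.0% (edgeR adjusted p = 0.0013; over the alternatives up to 0.0359). U2AF2, which encodes the large subunit that binds the pyrimidine tract, was at 255 ± 32.1 CPM with the inhibitor and 240 ± 32.1 CPM with DMSO (SD, n = 3 each) and was not called (log2 fold change 0.08, 95% interval from -0.15 to 0.32).

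Transcripts of U1 snRNP protein genes differed in direction. SNRPA, whose product binds a loop of U1 RNA, had 296.1, 313.3 and 333 CPM with the inhibitor, against 278.8, 229.6 and 249.3 CPM with DMSO. It rose by 0.31 ± 0.10 on the log2 scale (edgeR adjusted p = 0.0342). SNRNP70, which encodes the U1-70K protein, had 153.3, 140 and 133.3 CPM with the inhibitor, against 158.1, 171.9 and 203.8 CPM with DMSO, and fell by 0.32 on the log2 scale (SE 0.11, edgeR adjusted p = 0.0422). Both groups were apart, though for SNRNP70 the gap between the nearest libraries was small. The SNRPA call was lost without inhibitor replicate 2 or 3 or DMSO replicate 2 or 3 (adjusted p from 0.0843 to 0.188) and with library totals as the scaling (0.0924). The SNRNP70 call was lost without the same 4 libraries (adjusted p from 0.0815 to 0.225), with the replicate block (0.0576) and with upper-quartile scaling (0.0564). SNRPC, the third U1 protein gene, was at 119 ± 5.53 CPM with the inhibitor and 108 ± 18.9 CPM with DMSO and was not called (edgeR adjusted p = 0.434).

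Genes of the U2 snRNP subcomplexes SF3A and SF3B also differed among themselves. SF3B1, whose product holds the branch point region, had 281.7, 348.4 and 265.8 CPM with the inhibitor, against 240.4, 236.6 and 229.1 CPM with DMSO, and rose by 0.34 ± 0.11 on the log2 scale (edgeR adjusted p = 0.0272). Inhibitor replicate 2 was the highest library, and without it the adjusted p was 0.212; the call was also lost without DMSO replicate 1, 2 or 3 (0.0579 to 0.0911) and with library totals (0.0717). SF3A3, a subunit of SF3A, had 140.9, 164.6 and 146.1 CPM with the inhibitor, against 211.6, 177.8 and 175.1 CPM with DMSO, and had a log2 fold change of -0.32 ± 0.11 (edgeR adjusted p = 0.0371). Its call was lost without inhibitor replicate 1 or 3 or DMSO replicate 1 or 2 (adjusted p from 0.0595 to 0.185), with upper-quartile scaling (0.0531) and in thinned libraries (0.054). The other 5 SF3 genes were not called, from SF3A1 at -0.23 ± 0.11 (edgeR adjusted p = 0.159) to SF3B3 at 0.13 ± 0.10 (0.393).

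In the U5 and tri-snRNP set, EFTUD2, which encodes a GTPase of the U5 snRNP, had 65.73, 73.54 and 66.06 CPM with the inhibitor, against 86, 90.46 and 78.71 CPM with DMSO. The groups were apart and the log2 fold change was -0.31 ± 0.11 (edgeR adjusted p = 0.0394). EFTUD2 was no longer called without inhibitor replicate 1 or 3 or DMSO replicate 1 or 2 (adjusted p from 0.0772 to 0.156), with upper-quartile scaling (0.0578) and in thinned libraries (0.0646). EFTUD2 shares exon bases with CCDC103 and HIGD1B on the opposite strand, and whether the counting used strand is not given in the sources used here. SNRNP200, the helicase that unwinds U4 from U6, averaged 296 ± 24.2 CPM with the inhibitor and 256 ± 9.97 CPM with DMSO, without overlap, but was not called (log2 fold change 0.21 ± 0.10, edgeR adjusted p = 0.142). PRPF8, the large scaffold at the catalytic centre, had a log2 fold change of -0.02 with a 95% interval from -0.27 to 0.23. PRPF19 was at -0.13 ± 0.10. PRPF3 had 2.51 to 4.57 CPM with the inhibitor and 3.69 to 4.97 CPM with DMSO, and at that depth its interval ran from -0.74 to 0.26.

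The Sm protein genes, a set of only 7, held no call, while 20.2% of all tested genes were called. None of the 7, SNRPB, SNRPD1, SNRPD2, SNRPD3, SNRPE, SNRPF and SNRPG, was called, nor did any pass an unadjusted p under 0.05 in edgeR, and DESeq2 and limma voom called 0 of them. Their log2 fold changes ran from -0.18 in SNRPE to 0.02 in SNRPD2, with a median of -0.10. The groups overlapped in 6 of the 7, and in 7251 of the 11391 genes tested. For SNRPD1 the inhibitor libraries had 981.1, 1153 and 1217 CPM, against 1164, 1211 and 1218 CPM in the DMSO libraries, and the 95% interval of the log2 fold change ran from -0.31 to 0.11. SNRPG and SNRPC have 20 and 18 pseudogenes named after them in the annotation, so their counts are less certain.

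The ETS motif of the core genes is shown for 4 of them in windows of 60 bases, in capitals, as CCGGAAG or its complement CTTCCGG. SF3A3 fell, and SNRPB, SF3B4 and SNRNP200 were not called. The windows are chr1:37990058-37990117 (minus strand) for SF3A3, chr20:2470798-2470857 (minus) for SNRPB, chr1:149927804-149927863 (minus) for SF3B4 and chr2:96305551-96305610 (minus) for SNRNP200.
SF3A3: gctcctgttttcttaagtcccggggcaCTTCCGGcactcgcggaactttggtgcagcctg
SNRPB: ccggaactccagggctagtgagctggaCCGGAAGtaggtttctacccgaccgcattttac
SF3B4: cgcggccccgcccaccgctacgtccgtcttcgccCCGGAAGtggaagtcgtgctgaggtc
SNRNP200: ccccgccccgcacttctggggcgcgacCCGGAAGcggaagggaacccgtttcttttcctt

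The motif began 68 bases before the start in SF3A3, 41 in SNRPB, 26 in SF3B4 and 37 in SNRNP200. Over all 12 core promoters with the motif, the last match before the start began from 9 bases (SF3A2) to 241 bases (SNRPE) before it. SNRPC, at 211 bases, was also far from the start.

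Of the 12 splicing regulators, 2 rose (16.7%, against 9.92% of all tested genes) and 0 fell (against 10.3%). In the downward direction, 2 were below an unadjusted p of 0.05 in edgeR, and DESeq2 and limma voom called 0 falls. MBNL2, a muscleblind gene whose product binds CUG repeats and steers developmental splicing, had 208.9, 216.5 and 202.3 CPM with the inhibitor, against 166, 161.5 and 169.1 CPM with DMSO. The groups were well apart, and MBNL2 rose by 0.34 ± 0.10 on the log2 scale (edgeR adjusted p = 0.0164). The call was lost without inhibitor replicate 2 (0.0698) or DMSO replicate 2 (0.0803) and with library totals as the scaling (0.0541). Its relative MBNL1 had 67.07, 56.24 and 47.3 CPM with the inhibitor and 47.61, 48.88 and 50.2 CPM with DMSO. These groups overlapped through inhibitor replicate 3, and MBNL1 was not called (log2 fold change 0.22 ± 0.12, edgeR adjusted p = 0.2), except without that library (0.0462).

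PTBP2 had the largest rise of the list. It encodes the form of the polypyrimidine tract binding protein that is typical of neurons, and in other cells its relative PTBP1 is known to keep PTBP2 low by making its transcript skip an exon. PTBP2 had 21.88, 18.6 and 19.29 CPM with the inhibitor, against 14.96, 15.82 and 13.13 CPM with DMSO, without overlap. The log2 fold change was 0.44 ± 0.14, a rise of 36.1% (edgeR adjusted p = 0.0237), and the call was lost without inhibitor replicate 1 or DMSO replicate 1 or 3 (adjusted p from 0.0504 to 0.113), with library totals (0.0583) and in thinned libraries (0.065). PTBP1 averaged 705 ± 60.1 CPM with the inhibitor and 715 ± 33.4 CPM with DMSO (SD, n = 3 each), and its log2 fold change was -0.02 with a 95% interval from -0.23 to 0.19.

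The other 8 regulators were not called either. CELF1, which binds GU-rich RNA and often opposes muscleblind proteins, averaged 77.7 ± 1.82 CPM with the inhibitor and 92.1 ± 5.08 CPM with DMSO; its groups did not overlap (log2 fold change -0.25 ± 0.10, edgeR adjusted p = 0.0923), and it was called with library totals (0.0311). RBM10, whose product often favours exon skipping, averaged 52.03 ± 4.66 CPM with the inhibitor and 61.7 ± 2.69 CPM with DMSO and did not overlap either (log2 fold change -0.25 ± 0.11, edgeR adjusted p = 0.115; 0.0418 with library totals). TRA2B, an activator of exon inclusion, had 311.5, 321.6 and 168.2 CPM with the inhibitor and 329.8, 289 and 299 CPM with DMSO. Only inhibitor replicate 3 was low, and the log2 fold change of -0.19 was 0.05 without that library. TRA2A, its relative, had 34.88, 39.6 and 34.44 CPM with the inhibitor and 34.18, 32.99 and 33.25 CPM with DMSO (log2 fold change 0.12 ± 0.11). RBM39 had 241.1, 263.4 and 241.2 CPM with the inhibitor and 216, 222.6 and 207.2 CPM with DMSO, apart but not called (0.21 ± 0.10, edgeR adjusted p = 0.142). RBM25, RBM5 and QKI lay at -0.19, 0.09 and -0.05.

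Of the 3 nuclear speckle genes, SON fell and the others were not called. SON encodes a scaffold of nuclear speckles that helps splice introns with weak splice sites. It had 49.14, 52.54 and 50.25 CPM in the inhibitor libraries, against 70.91, 77.74 and 65.58 CPM in the DMSO libraries. The inhibitor libraries were close together and below every DMSO library, and SON fell by 0.50 ± 0.11 on the log2 scale (edgeR adjusted p = 0.0024; 0.0641 in the test against a fold of 1.2). SON shares exon bases with DONSON and GART on the opposite strand, so reads of these genes could be mixed if strand was not used. SRRM1 had 396.9, 396.3 and 340.3 CPM with the inhibitor and 408, 447 and 509.7 CPM with DMSO, and its log2 fold change of -0.27 ± 0.11 was not called (edgeR adjusted p = 0.0819), except with library totals (0.0219). SRRM2, a core speckle protein, had 723.7, 769.6 and 986.3 CPM with the inhibitor and 853.8, 996 and 1040 CPM with DMSO. Here inhibitor replicate 3 lay among the DMSO libraries, and without it the adjusted p was 0.0208, against 0.19 with it.

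Overlapping annotation limits other called genes in the same way. HNRNPU shares exon bases with COX20, HNRNPAB with PHYKPL and SNRPA with C19orf54 on the opposite strand, and HNRNPL with AC008982.1 on the same strand. In the list as a whole, 24 genes share exon bases with a gene on the opposite strand and 5 with a gene on the same strand.

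For 39 of the 40 genes not called, PRPF3 left out, the 95% intervals of the log2 fold change lay between -0.52 and 0.47, so changes beyond 0.698-fold and 1.39-fold lie outside them. Each gene's own interval gives the range of changes that its libraries allow.

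Ratios between related genes within a library do not depend on the scaling. The log2 ratio of PTBP1 to PTBP2 counts averaged 5.14 ± 0.21 with the inhibitor and 5.61 ± 0.16 with DMSO (SD, n = 3 each). Every inhibitor library was lower than every DMSO library, and the difference was -0.47 ± 0.15 (exact permutation p = 0.1, two-sided, which 3 against 3 libraries cannot go below; 0.36 after Benjamini-Hochberg adjustment over the 9 pairs). The log2 ratio of HNRNPH1 to HNRNPF averaged 1.31 ± 0.10 with the inhibitor and 1.01 ± 0.13 with DMSO, again without overlap (difference 0.31 ± 0.09, exact permutation p = 0.1, adjusted 0.36). In the other 7 pairs the exact permutation p ran from 0.2 to 0.6. TRA2A to TRA2B had a difference of 0.37 ± 0.27, and 0.10 without inhibitor replicate 3. No pair could reach an adjusted p under 0.05 in this design.

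**Figure D4:**
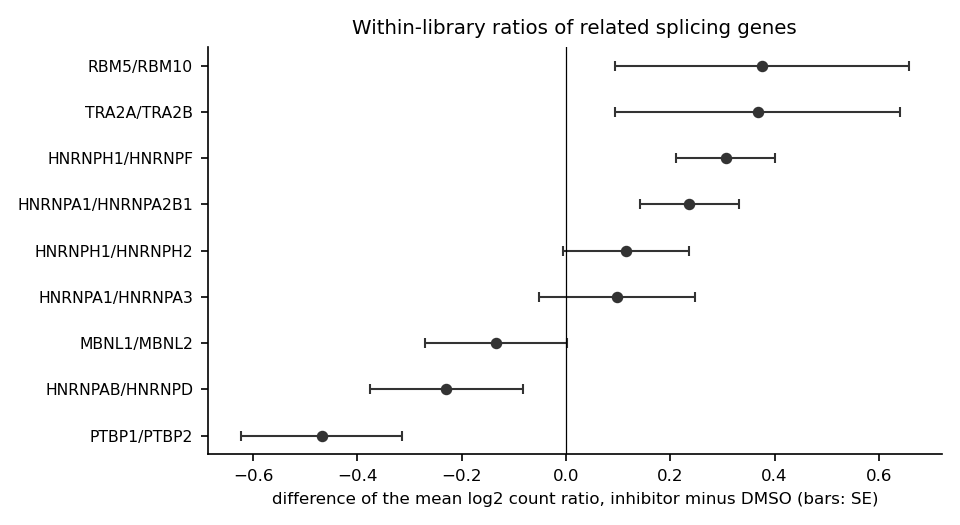
Points show, for 9 pairs of related genes (y axis), the difference between the mean log2 count ratio of the inhibitor and DMSO libraries (x axis), with bars for the SE. PTBP1/PTBP2 lies lowest at -0.47, and HNRNPH1/HNRNPF lies at 0.31 with a short error bar.

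Transcripts annotated as targets of nonsense-mediated decay were common among these genes. In GENCODE release 29, 32 of the 55 (58.2%) had at least 1 such transcript, against 42.6% of all tested genes in the annotation, and 39 (70.9%) had a retained-intron transcript, against 57.3%. By group, the decay share was 62.5% of hnRNP genes, 66.7% of splicing regulators and 100% of the 3 speckle genes. Among the 24 snRNP, SF3 and core genes it was 45.8%, near that of all tested genes. The shares with a decay transcript were 4 of 5 genes that rose, 6 of 10 that fell and 22 of 40 not called. For retained-intron transcripts they were 3 of 5, 7 of 10 and 29 of 40. RBM39 had the most, with 15, and HNRNPU had 9. HNRNPF and PTBP2 had 0. These counts describe the annotation and not the transcripts present in the cells.

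Further genes were read in 4 lists with 121 tested genes, of splicing and RNA-binding proteins and of nonsense-mediated decay factors. They also fell more often than they rose, with 27 falls (22.3%, against 10.3% of all tested genes) and 5 rises (4.13%, against 9.92%). Several changed more than any gene of the main list. Of 21 exon junction and speckle genes, 2 rose (9.52%) and 6 fell (28.6%). BCLAF1 and THRAP3, which encode related RNA-binding proteins rich in arginine and serine, fell by 1.12 and 0.76 on the log2 scale (SE 0.11 each, edgeR adjusted p = 2.13e-07 and 2.6e-05). BCLAF1 averaged 57.9 ± 7.66 CPM with the inhibitor and 126 ± 4.16 CPM with DMSO (SD, n = 3 each). RSRP1, which encodes an arginine- and serine-rich protein, rose by 1.14 ± 0.15 and averaged 20.8 ± 2.41 CPM with the inhibitor and 9.41 ± 0.98 CPM with DMSO (edgeR adjusted p = 9.2e-06). RSRC2 rose by 0.70 ± 0.11.

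Among 37 further RNA-binding regulators, 2 rose (5.41%, against 9.92% of all tested genes) and 8 fell (21.6%, against 10.3%). RBM4B had a log2 fold change of -1.19 ± 0.18 (edgeR adjusted p = 5.68e-05), but its reads may be shared with its near-identical relative RBM4, which was not called. SFPQ, a paraspeckle protein gene, fell by 0.62 on the log2 scale and averaged 349 ± 24.6 CPM with the inhibitor and 536 ± 34.7 CPM with DMSO (edgeR adjusted p = 1.37e-04). RBM6 fell by 0.61. RBM15 fell by 0.90 on the log2 scale, at 2.55 ± 1.05 CPM with the inhibitor and 4.56 ± 0.30 CPM with DMSO, a call lost with DESeq2 (adjusted p = 0.0508), without inhibitor replicate 1 (0.139) or DMSO replicate 1 (0.0558).

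Of 53 further spliceosome components, 1 rose (1.89%, against 9.92% of all tested genes) and 11 fell (20.8%, against 10.3%). LUC7L3, whose yeast relative acts with the U1 snRNP, fell by 0.63 ± 0.12 and averaged 93.2 ± 12.7 CPM with the inhibitor and 144 ± 18.9 CPM with DMSO (edgeR adjusted p = 7.05e-04). U2SURP fell by 0.51. LUC7L2 fell by 0.43, and was not called without DMSO replicate 3 (edgeR adjusted p = 0.0686). SNRNP25, of the minor spliceosome, fell by 0.80 on the log2 scale, at 3.33 ± 1.65 CPM with the inhibitor and 5.54 ± 0.69 CPM with DMSO, a call lost with DESeq2 (adjusted p = 0.099), in thinned libraries (0.116), without inhibitor replicate 1 (0.296) and without each of DMSO replicates 1 to 3 (0.0626 to 0.164). Of 10 nonsense-mediated decay factors, 2 fell (20%, against 10.3% of all tested genes) and 0 rose (against 9.92%). There were 0 rises also at an unadjusted p under 0.05 in edgeR, in DESeq2 and in limma voom. UPF2 fell by 0.63 ± 0.11 and averaged 27.6 ± 0.89 CPM with the inhibitor and 42.7 ± 1.16 CPM with DMSO (edgeR adjusted p = 3.51e-04). UPF3B fell by 0.52, with overlapping groups, and lost the call without inhibitor replicate 1 or 2 or DMSO replicate 3 (0.0761 to 0.172). Without DMSO replicate 3, 16 genes of these lists fell, while 7.39% of all tested genes fell.

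**Figure D5:**
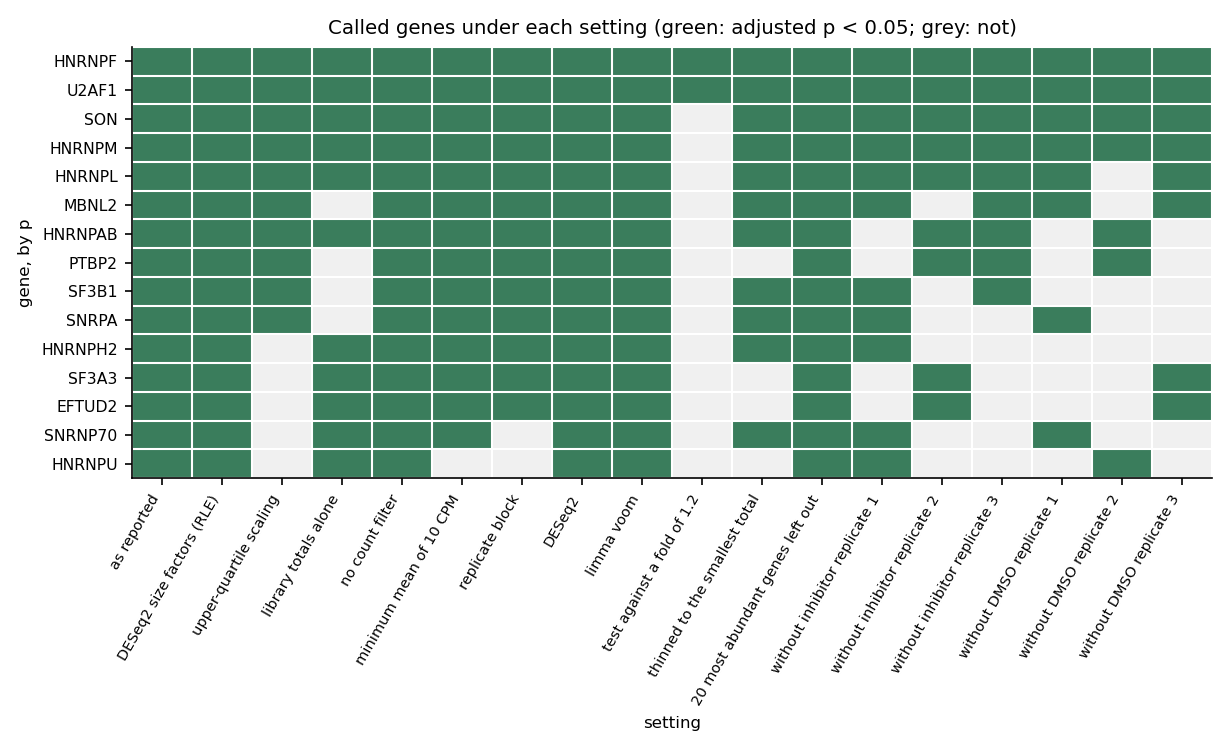
Tiles show, for the 15 called genes (y axis, ordered by p) under each setting (x axis), whether the adjusted p was under 0.05 (green) or not (grey). HNRNPF and U2AF1 are green throughout, SON and HNRNPM are grey only in the test against a fold of 1.2, and the remaining 11 are grey without at least 1 of the 6 libraries.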

How the data were processed

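The authors deposited 1 table per library with whole-number read counts per gene symbol, not normalised. Per the labels' protocols, the libraries came from an amplicon panel read on an Ion Proton instrument. The submitters' processing notes name HTSeq, DESeq2 1.20.0 and the hg19 build, with no role for any of them; aligner, annotation and strand setting are not given. Sample titles gave the groups and replicate numbers. Within each group, no pair of libraries agreed within sampling noise (chi-square over its degrees of freedom was 9.32 to 14.7). Since PCR reads are not independent molecules, this cannot tell biological replicates from repeats of 1 sample. Each library counts as 1 replicate, following the submitters' description.

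The tests were run in edgeR 4.0.16 under R 4.3.3, with filterByExpr by group (11391 genes kept, holding 99.924% of counts), TMM factors (0.9735 to 1.0469) and the quasi-likelihood functions glmQLFit and glmQLFTest, inhibitor minus DMSO and no covariate. Benjamini-Hochberg adjustment ran over all tested genes. A gene rose or fell where its adjusted p was under 0.05. SE was obtained as the absolute log2 fold change over the root of F, and 95% intervals from the t distribution of that test. CPM carry the SD over 3 libraries. Pair ratios were taken from counts plus 0.5, with exact permutation tests. The procedure was first run on simulated counts. What that run had to recover were changes larger than any of the list, so it does not bear on the calls here. The alternatives were the scalings (DESeq2 size factors, upper quartile, totals), the filters (none, or a mean of at least 10 CPM), DESeq2 1.42.0 and voom of limma 3.58.1 as tools, the replicate number as a block, a minimum fold of 1.2 in the test, thinning of all libraries to equal totals, removal of the 20 most abundant genes, and removal of single libraries. PCR reads carry no molecular identifiers and are not independent molecules.

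The genes, lists and tests were chosen with earlier results of these data known. By the naming rule, the text names the called genes of the list (with values per library for the 10 of smallest p), up to 2 uncalled genes per group and up to 4 called genes of each further list. Other genes were named after their values were seen. Motifs were searched as exact letters. Protein comparisons were not analysed here.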

Additional observations from a re-analysis of the deposited data

How the results depend on the processing

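The count of changed genes, 2298, was 829 in the test against a fold of 1.2 and lay between 1405 and 2246 with single libraries left out. Genes of the list that rose, 5, numbered 1 with library totals alone, 0 in the test against a fold of 1.2 (where 1 had an unadjusted p under 0.05 in that test, while DESeq2 and limma voom without a minimum fold called 5 each) and 1 to 5 with single libraries left out. Those that fell, 10, numbered 5 with upper-quartile scaling, 2 in the test against a fold of 1.2 and 5 to 7 with single libraries left out. Over all tested genes, 7.3% rose with library totals alone and 8.97% fell with upper-quartile scaling. In the test against a fold of 1.2, 3.94% rose and 3.34% fell. With single libraries left out, 5.95% to 9.83% rose and 6.27% to 9.66% fell. Among the genes of the 4 further lists, the test against a fold of 1.2 left 2 of 5 rises and 8 of 27 falls. Leaving out single libraries gave 16 to 28 falls.

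No called gene of the list changed sign under any alternative run, and 39 of the 55 never did. The other 16 were not called and changed sign at least once. With upper-quartile scaling, the log2 fold changes were 0.0047 for SNRPB, 0.0052 for SNRPF, 0.0079 for PRPF8 and 0.0048 for PTBP1. With library totals alone, they were -0.052 for SNRPD2 and -0.0375 for SF3A2. With single libraries left out, the log2 fold change ran from -0.1557 to 0.0369 for HNRNPA2B1, -0.0462 to 0.196 for HNRNPA3, -0.156 to 0.0136 for HNRNPD, -0.0784 to 0.0881 for SNRPB, -0.0569 to 0.0668 for SNRPD2, -0.0864 to 0.0518 for SNRPF, -0.3412 to 0.049 for SNRPG, -0.1025 to 0.116 for SF3A2, -0.1335 to 0.0316 for SF3B2, -0.015 to 0.1857 for U2AF2, -0.3988 to 0.0258 for PRPF3, -0.164 to 0.0675 for PRPF8, -0.3482 to 0.0476 for TRA2B, -0.0973 to 0.2334 for RBM5, -0.0917 to 0.028 for PTBP1 and -0.1018 to 0.0522 for QKI. The cause of these changes was not tested.

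Replicate numbers did not pair the libraries: deviations of same-numbered libraries correlated at 0.0317, -0.0166 and 0.0069 across genes. With the replicate number as a block, 2223 genes changed, and 5 genes of the list rose and 8 fell. PRPF3 has no value under the minimum of 10 CPM. For genes not called, the 95% intervals give the range of changes that 3 libraries a group allow.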
